A study of Mus musculus with 2 samples.

Results

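The COUP-TF nuclear receptor genes Nr2f1, Nr2f2 and Nr2f6 were followed through the cell types of the mouse posterior second heart field and heart tube. They were taken by gene symbol from the deposited gene list, and all 3 were found, each under 1 identifier, among 52550 gene identifiers. The data are 2 Drop-seq libraries, called replicate 1 and replicate 2. Drop-seq pairs single cells with barcoded beads in droplets, captures polyadenylated RNA, and counts the captured molecules by unique molecular identifiers (UMIs). Both libraries came from wild-type embryos of the CD1 strain at E10.0, with microdissected tissue of about 80 embryos pooled per library and the libraries made on different days. There was no mutant or treated group, so the comparisons below are between cell types of the same pooled embryos.

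COUP-TF proteins are orphan members of the nuclear receptor family that bind direct repeats of the nuclear receptor half-site and often act as repressors. Nr2f2 (COUP-TFII) is known in the mouse for its role in venous endothelium, in atrial cardiomyocytes and in foregut and body wall mesenchyme, and retinoic acid is known to raise its expression. Nr2f1 (COUP-TFI) is its close paralog and is best known for patterning of the nervous system and neural crest derivatives, and Nr2f6 is the more distant member of the subfamily.

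In the GRCm38 build (mm10) with the GENCODE M21 annotation, Nr2f1 (ENSMUSG00000069171.14) lies at chr13:78188973-78199757, Nr2f2 (ENSMUSG00000030551.14) at chr7:70351944-70366735 and Nr2f6 (ENSMUSG00000002393.14) at chr8:71374123-71381960. All 3 are protein-coding genes on the minus strand, and each overlaps a gene on the plus strand. The overlap was 1741 bases at the 5′ end of Nr2f1 with the antisense transcript A830082K12Rik, 1826 bases at the 5′ end of Nr2f2 with B130024G19Rik, and 5239 bases from the 3′ end of Nr2f6 with the protein-coding gene Ocel1. The strand used in counting is not given in the sources used here, so reads in these overlaps could not be assigned with certainty. The neighbours were counted at lower numbers over all kept cells, with 248 and 179 UMIs of A830082K12Rik, 116 and 78 of B130024G19Rik and 89 and 75 of Ocel1 in replicates 1 and 2.

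The files held 5000 and 7497 barcodes with 11958912 and 14131384 UMIs. Cells needed 400 or more genes and no more than 10% mitochondrial UMIs. Those with doublet scores above the cut for the highest 5% were removed (174 and 189 cells). This left 3864 and 4745 cells with median depths of 1375.5 and 1502 UMIs. The libraries shared 82 barcode sequences, none of them among kept cells. Cells were clustered without the COUP-TF genes and without a further random set of genes, 17830 in all, and only those held-out genes were tested. Of 31 clusters, 23 could be named by markers and fell into 15 classes, while 8 clusters with 1020 and 1240 cells stayed unnamed. Class names carry the ending -like because they rest on markers. The second heart field (SHF) progenitor-like class has leading genes of foregut mesenchyme as well (Cxcl13, Nkx6-1 and Barx1). Its foregut mesenchyme markers summed to 925 and 670 CPM (UMIs of a gene per 1000000 UMIs of the class in that library) and its own markers to 1120 and 1097 CPM. In cardiomyocyte-like cells foregut mesenchyme markers summed to 786 and 446 CPM and SHF progenitor markers to 1045 and 849 CPM, but the make-up differed. Of the 8 foregut mesenchyme markers, 4 and 5 had no UMI there, against 1 in each library of the progenitor-like class. Foxf1 stood at 1.57 and 1.43 CPM in cardiomyocyte-like cells against 101 and 107 CPM in progenitor-like cells. Osr1 stood at 102 and 88.9 against 324 and 347 CPM. Tbx5 went the other way, at 178 and 165 against 144 and 125 CPM.

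Over all kept cells, Nr2f2 had 2413 and 2382 UMIs (216 and 186 CPM), Nr2f1 832 and 948 UMIs (74.5 and 73.9 CPM) and Nr2f6 416 and 629 UMIs (37.3 and 49.0 CPM). A UMI of Nr2f2 was found in 28.4% and 25.9% of cells, one of Nr2f1 in 13.8% and 12.7%, and one of Nr2f6 in 8.59% and 10.6%. Erythroid-like cells were the deepest class by median (3475 and 6040 UMIs). Only 3.14% and 4.11% of them had a Nr2f2 UMI, 1.26% and 2.05% a Nr2f1 UMI and 0.629% and 0.685% a Nr2f6 UMI. Barcodes of 10 to 200 UMIs, which mostly carry free RNA, numbered 117 and 333 with 8713 and 55494 UMIs in all, and held 2 and 7 UMIs of Nr2f1 (230 and 126 CPM), 0 and 11 of Nr2f2 (0 and 198 CPM) and 0 and 1 of Nr2f6 (0 and 18.0 CPM). At these few UMIs, the free-RNA level of Nr2f1, and of Nr2f2 in replicate 2, was not below that of kept cells.

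Nr2f1 was highest in paraxial mesoderm-like and neural crest or glia-like cells and lowest in erythroid-like, hepatoblast-like, foregut endoderm-like and endothelial-like cells. It reached 204 and 205 CPM in paraxial mesoderm-like cells (marked by Meox1, Meox2 and Tcf15) and 162 and 230 CPM in neural crest or glia-like cells (marked by Sox10 and Erbb3). These ranges overlap, and both lie above the next class. Neural tube-like cells followed with 112 and 155 CPM, and ectomesenchyme-like cells, marked by Dlx and Msx genes and with Hoxa9 among the leading genes of 1 of their clusters, with 122 and 97.3 CPM. SHF progenitor-like cells had 79.4 and 86.6 CPM, cardiomyocyte-like cells 89.6 and 68.8 CPM and surface ectoderm-like cells 72.9 and 60.2 CPM. Those 3 classes form a middle group in which adjacent ranges overlap. Epicardial or mesothelial-like cells had 44.5 and 40.6 CPM, neuron-like cells 50.2 and 21.9 CPM from only 5 and 2 UMIs, and pharyngeal mesoderm-like cells 31.5 and 37.7 CPM. The lowest levels were 13.8 and 9.73 CPM in endothelial-like, 9.29 and 9.67 CPM in foregut endoderm-like, 3.41 and 4.04 CPM in hepatoblast-like and 1.86 and 2.75 CPM in erythroid-like cells. Each library of these 4 classes held between 1 and 9 Nr2f1 UMIs, and all 8 values lie below those of the other 10 tested classes. Macrophage-like cells numbered 8 and 10 and were not tested.

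**Figure D1:**
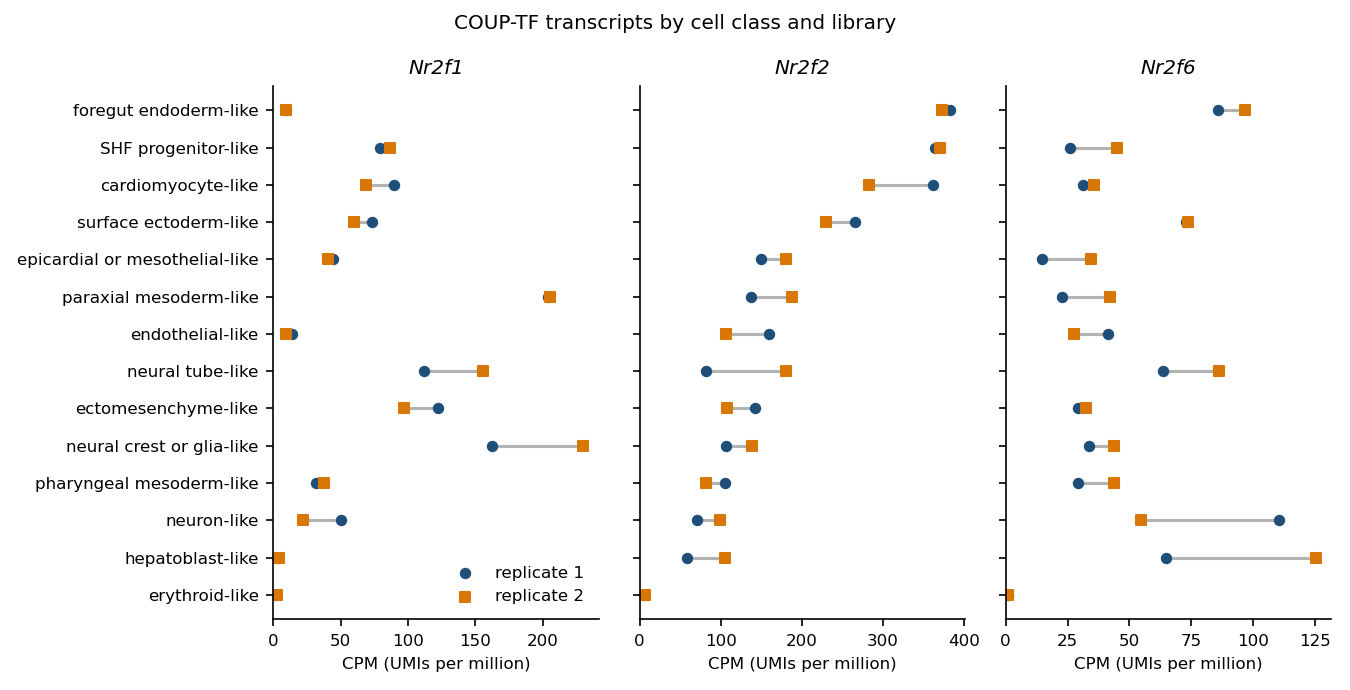
Level of each COUP-TF gene, in CPM, in the 14 tested cell classes, with 1 point per library and a grey line joining both libraries. Nr2f2 is high in foregut endoderm-like, SHF progenitor-like and cardiomyocyte-like cells, Nr2f1 in paraxial mesoderm-like and neural crest or glia-like cells, and Nr2f6 in hepatoblast-like, foregut endoderm-like and neural classes.

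Each class was tested against the mean of the log levels of the other named classes by the two-sided quasi-likelihood F test of edgeR, with the library as a block and Benjamini-Hochberg adjustment over 3812 held-out genes, calling adjusted p under 0.05. These tests rest on how far the differences between classes vary between the 2 libraries, with 13 residual degrees of freedom pooled over 14 classes. They compare classes drawn from the same pools, not groups of embryos, and in sums over many cells fewer cells of a kind and less RNA per cell cannot be told apart. Nr2f1 was called higher in 6 classes. The log2 fold change was 2.51 in paraxial mesoderm-like cells (SE 0.15, edgeR adjusted p = 9.1e-19, with 6.22% of tested genes called higher) and 2.46 in neural crest or glia-like cells (SE 0.14, edgeR adjusted p = 1.2e-19, 8.76% called higher). In neural tube-like cells it was 1.85 (7.27% called higher), in ectomesenchyme-like cells 1.54 (8.74%), in cardiomyocyte-like cells 1.17 (18.4%) and in SHF progenitor-like cells 1.12 (10.2%), with edgeR adjusted p of at most 2.2e-06. The gene was called lower in 4 classes, namely endothelial-like cells (log2 fold change -1.86, 6.74% called lower), foregut endoderm-like cells (-2.23, 3.31%), erythroid-like cells (-3.33, 23.6%) and hepatoblast-like cells (-3.58, 3.62%). Few UMIs stand behind the last values, so the CPM ratio to the other 13 classes together is also given. With both libraries summed it was 0.0483 in hepatoblast-like cells from 2 UMIs (exact 95% interval of counting error 0.00585 to 0.175), and 0.0276 in erythroid-like cells from 5 UMIs (0.00894 to 0.0645). With cells thinned to 1000 UMIs, the Nr2f1 calls in SHF progenitor-like, cardiomyocyte-like, endothelial-like, foregut endoderm-like and erythroid-like cells were lost, and that in SHF progenitor-like cells was also lost with cells of at least 800 genes.

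Nr2f2 was highest in foregut endoderm-like, SHF progenitor-like and cardiomyocyte-like cells, which sit close together. It measured 382 and 372 CPM in foregut endoderm-like cells, 364 and 370 CPM in SHF progenitor-like cells and 362 and 282 CPM in cardiomyocyte-like cells. The ranges of the endoderm and progenitor classes are separated by 372 against 370 CPM, less than each class differs between its own libraries. Surface ectoderm-like cells came next with 266 and 230 CPM. Then came a broad group with overlapping ranges, in which epicardial or mesothelial-like cells had 150 and 181 CPM, paraxial mesoderm-like cells 137 and 188 CPM, endothelial-like cells 159 and 107 CPM, neural tube-like cells 81.8 and 180 CPM, ectomesenchyme-like cells 142 and 108 CPM and neural crest or glia-like cells 106 and 139 CPM. Pharyngeal mesoderm-like cells had 106 and 81.5 CPM, neuron-like cells 70.3 and 98.6 CPM, hepatoblast-like cells 58.0 and 105 CPM and erythroid-like cells 5.58 and 6.42 CPM. All tested classes but the erythroid-like one thus held Nr2f2 at 58.0 CPM or more in both libraries.

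By the same test, Nr2f2 was called higher in 4 classes and lower in 3. The log2 fold change was 1.60 in foregut endoderm-like cells (SE 0.12, edgeR adjusted p = 3.8e-16, 11.4% of tested genes called higher), 1.56 in SHF progenitor-like cells (SE 0.10, edgeR adjusted p = 2.8e-17, 10.2%) and 1.48 in cardiomyocyte-like cells (SE 0.13, edgeR adjusted p = 8.9e-14, 18.4%). In surface ectoderm-like cells it was 0.88 (SE 0.19, edgeR adjusted p = 0.00063, 6.35%). Erythroid-like cells were lower, at a log2 fold change of -3.75 (23.6% called lower) and a CPM ratio to the other classes of 0.0270 from 13 UMIs. The other calls were small, -0.61 in pharyngeal mesoderm-like cells (edgeR adjusted p = 0.030, 0.577% called lower) and -0.76 in hepatoblast-like cells (edgeR adjusted p = 0.048, 3.62%). Both were lost in 6 of the alternative settings. For endothelial-like cells the log2 fold change was 0.03 (SE 0.16, edgeR adjusted p = 0.989). In the same contrast 8 of 9 tested venous and lymphatic genes were called higher, among them Aplnr at 7.35 and Ephb4 at 2.37, and so were 10 of 11 tested arterial genes, against 15.5% of all tested genes.

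Detection of Nr2f2 per cell did not keep the order of the CPM values. A UMI was found in 49.2% and 46.0% of SHF progenitor-like cells, 51.7% and 39.7% of cardiomyocyte-like cells and 44.4% and 36.1% of foregut endoderm-like cells. With each cell thinned to 1000 UMIs, and 2975 shallower cells left out over both libraries, these shares were 28.3% and 29.7%, 30.9% and 15.7%, and 27.1% and 26.0%. Foregut endoderm-like cells thus had the highest CPM of these 3 classes but not the highest shares, either before or after thinning. The thinned share in erythroid-like cells was 0.671% and 0.690%. Cardiomyocyte-like cells were the class in which the libraries stood farthest apart in the thinned share among these 3.

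Nr2f6 was highest in hepatoblast-like, foregut endoderm-like, neural and surface ectoderm-like cells. It measured 64.9 and 125 CPM in hepatoblast-like cells, 85.6 and 96.7 CPM in foregut endoderm-like cells, 110 and 54.8 CPM in neuron-like cells (11 and 5 UMIs), 63.6 and 86.3 CPM in neural tube-like cells and 72.9 and 73.8 CPM in surface ectoderm-like cells. Neighbours in this order of 5 overlap, and all 5 lie above the other classes in both libraries. In the other classes except the erythroid-like one, Nr2f6 ran between 14.8 and 44.9 CPM, with 26.1 and 44.9 CPM in SHF progenitor-like and 31.4 and 35.8 CPM in cardiomyocyte-like cells. Erythroid-like cells had 1 UMI in each library, while Ocel1, the gene that overlaps Nr2f6 on the other strand, had 22 and 20 UMIs there.

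Nr2f6 was called higher in 4 classes and lower in 1. The log2 fold change was 1.45 in hepatoblast-like cells (SE 0.27, edgeR adjusted p = 6.0e-05, 7.97% of tested genes called higher), 1.37 in foregut endoderm-like cells (SE 0.19, edgeR adjusted p = 8.9e-08, 11.4%), 1.04 in neural tube-like cells (SE 0.25, edgeR adjusted p = 0.0031, 7.27%) and 0.95 in surface ectoderm-like cells (SE 0.29, edgeR adjusted p = 0.024, 6.35%). In neuron-like cells it was 1.14 and was not called (SE 0.42, edgeR adjusted p = 0.084, 8.55% of tested genes called in either direction). In epicardial or mesothelial-like cells none of the 3 genes was called (9.5% of tested genes called). In erythroid-like cells the CPM ratio to the other 13 classes was 0.0203 from 2 UMIs (exact 95% interval of counting error 0.00246 to 0.0736), and the gene was called lower (23.6% called lower). When cells were thinned, the neural tube-like and surface ectoderm-like calls of Nr2f6 were lost, and the erythroid-like call was lost at clustering resolution 3. Foregut endoderm-like cells were the one class in which Nr2f2 and Nr2f6 were called higher and Nr2f1 lower.

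The balance between the close paralogs was set out as the Nr2f1 share of Nr2f1 and Nr2f2 UMIs together. Capture of the 2 mRNAs may differ, so the share is compared across classes only. Nr2f1 made up 60.4% and 62.4% in neural crest or glia-like cells, 59.8% and 52.2% in paraxial mesoderm-like cells, 57.8% and 46.3% in neural tube-like cells and 46.3% and 47.4% in ectomesenchyme-like cells. In SHF progenitor-like cells it made up 17.9% and 18.96%, and in cardiomyocyte-like cells 19.9% and 19.6%. The progenitor and cardiomyocyte intervals overlap in both libraries, at 15.4% to 20.6% and 16.2% to 22.0% for progenitors against 15.4% to 24.95% and 14.8% to 25.1% for cardiomyocytes (exact binomial, 95%, counting error only). Epicardial or mesothelial-like (22.9% and 18.3%) and surface ectoderm-like cells (21.5% and 20.8%) were near that level, and pharyngeal mesoderm-like cells had 23.0% and 31.6%. Low shares were found in endothelial-like cells (7.95% and 8.33%), hepatoblast-like cells (5.56% and 3.70%) and foregut endoderm-like cells (2.37% and 2.53%). Over all kept cells the share was 25.6% and 28.5%.

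**Figure D2:**
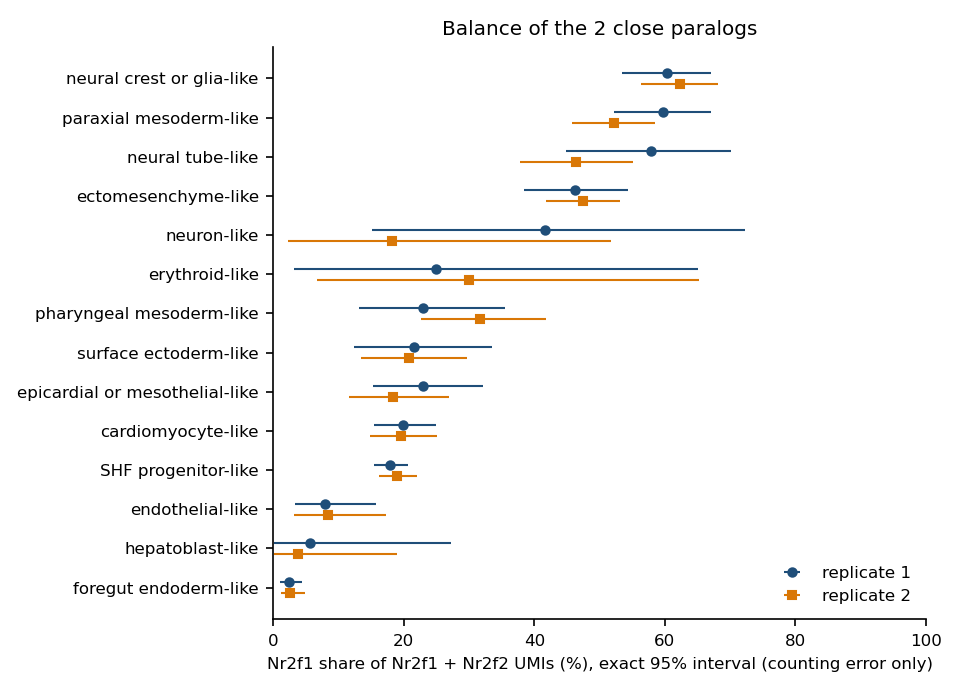
Nr2f1 as a percentage of Nr2f1 and Nr2f2 UMIs in each class and library, with exact 95% binomial intervals that cover counting error only. Neural crest or glia-like and paraxial mesoderm-like cells lie above 50% in both libraries, SHF progenitor-like and cardiomyocyte-like cells near 20%, and foregut endoderm-like cells below 3%.

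SHF progenitor-like cells were then set directly against cardiomyocyte-like cells, the differentiated cells of the heart tube. Nr2f1 measured 79.4 and 86.6 CPM in progenitors and 89.6 and 68.8 CPM in cardiomyocytes. For Nr2f2 the values were 364 and 370 CPM in progenitors and 362 and 282 CPM in cardiomyocytes, and for Nr2f6 they were 26.1 and 44.9 CPM in progenitors and 31.4 and 35.8 CPM in cardiomyocytes. The ranges overlap for Nr2f1 and Nr2f6, and for Nr2f2 they are separated by 364 against 362 CPM. None of the 3 genes was called, at an unadjusted p of at least 0.589 by edgeR and with DESeq2 calling none of them either, while 27.1% of 3812 tested genes were called (edgeR, 476 higher and 556 lower in progenitors). The log2 fold changes were -0.04 for Nr2f1 (SE 0.19, edgeR adjusted p = 0.909), 0.08 for Nr2f2 (SE 0.14, edgeR adjusted p = 0.746) and -0.07 for Nr2f6 (SE 0.30, edgeR adjusted p = 0.912).

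The Nr2f1 and Nr2f2 results of this contrast depended on which cells entered the classes. Of cells with at least 800 genes, only 47 and 65 formed the SHF progenitor-like class, against 545 and 557 in the larger set, and they had 822 and 774 CPM of Nr2f2, 602 and 607 CPM of Osr1 and 228 and 261 CPM of Tnnt2. In that smaller class Nr2f2 was 1.18 log2 units higher (edgeR adjusted p = 1.9e-06) than in cardiomyocyte-like cells, and Nr2f1 was lower, at -1.08 (edgeR adjusted p = 0.042). Without the mitochondrial filter the directions turned, with Nr2f2 at -0.69 (edgeR adjusted p = 6.6e-05) and Nr2f1 at 0.49 (edgeR adjusted p = 0.028). The cardiomyocyte-like class then held 221 and 284 cells, against 145 and 189 with the filter, with 221 and 199 CPM of Osr1 against 102 and 88.9 CPM.

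A finer clustering divided the progenitors by Nr2f2. At resolution 3, where the progenitor class as a whole was higher in Nr2f2 than cardiomyocytes by 0.44 log2 units (edgeR adjusted p = 0.023), a cluster of 42 and 65 cells led by Crhbp, Scn7a and Osr1 had 612 and 772 CPM of Nr2f2. Of its 107 cells, 104 belonged to the SHF progenitor-like class. A second progenitor cluster, led by Cxcl13 and Msc, had 478 and 449 CPM of Nr2f2. An unnamed cluster led by Shox2 and Hcn4, genes known from the sinus venosus and pacemaker lineage, had 443 and 307 CPM of Nr2f2. These clusters were found with the held-out genes left out, but they were singled out after their Nr2f2 levels were seen, and no test is attached to them.

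To follow the genes along the appearance of contractile transcripts, SHF progenitor-like and cardiomyocyte-like cells were binned by the share of their UMIs from 12 cardiomyocyte markers. With the marker share under 0.1%, Nr2f2 stood at 360 and 355 CPM (506 and 511 cells). From 0.1% to 0.3% it stood at 430 and 609 CPM (53 and 50 cells), from 0.3% to 1% at 437 and 347 CPM (50 and 42 cells), and from 1% to 3% at 399 and 289 CPM (33 and 73 cells). At 3% and more it stood at 255 and 222 CPM (48 and 70 cells), the lowest value of the 5 bins in each library. Nr2f1 gave no common order, with 79.7 and 88.5, 111 and 47.6, 84.4 and 144, 121 and 44.1, and 57.6 and 51.8 CPM in the same bins. Nr2f6 ran between 13.9 and 59.0 CPM. The bins largely repeat the 2 classes. SHF progenitor-like cells made up 500 of 506 and 510 of 511 cells of the first bin, and bins from 1% up held only cardiomyocyte-like cells. The progenitor gene Osr1 stood at 304 and 336 CPM in the first bin and 14.4 and 70.3 CPM in the last. Osr1 was itself a marker for naming the progenitor class, so its fall was in part set by that naming. A Nr2f2 UMI was found in 51.0% and 46.4% of cells of the first bin and in 24 of 48 and 30 of 70 cells of the last.

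**Figure D3:**
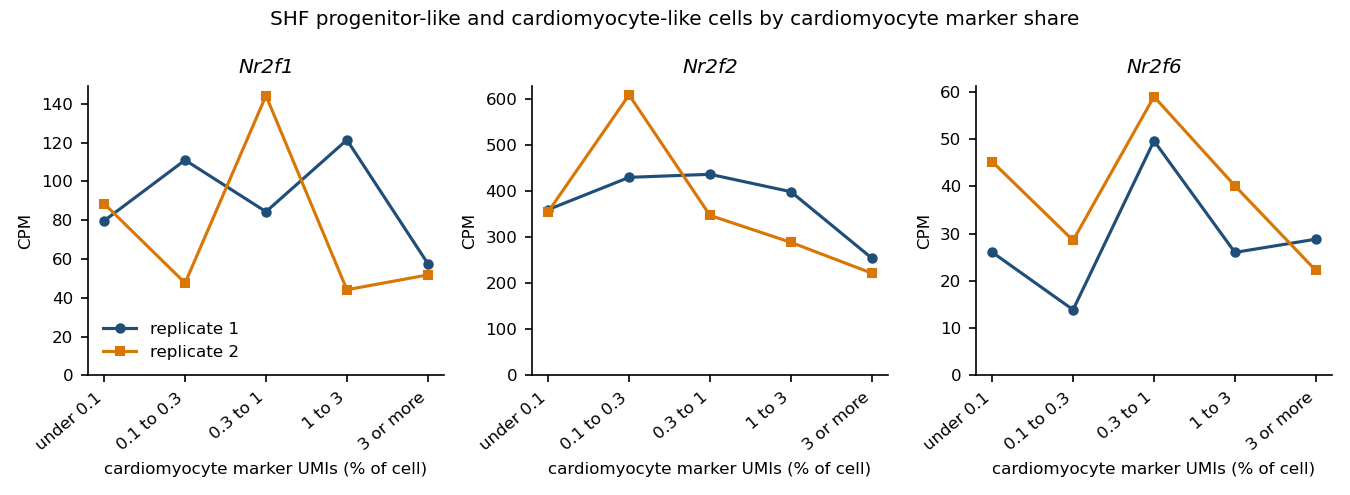
CPM of each COUP-TF gene in SHF progenitor-like and cardiomyocyte-like cells grouped by the percentage of a cell's UMIs from 12 cardiomyocyte markers, with 1 line per library. Nr2f2 is lowest in the last bin in both libraries (255 and 222 CPM), while Nr2f1 follows a different course in each library.

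Cardiomyocyte-like cells were divided by Myl2, the ventricular regulatory myosin light chain, into cells without a Myl2 UMI (137 and 166) and cells with at least 1 (8 and 23). Median depths were 2349 and 1976.5 UMIs without Myl2 and 2514.5 and 2912 UMIs with it. Cells without Myl2 had 93.3 and 77.9 CPM of Nr2f1, against 0 and 18.7 CPM (0 and 2 UMIs) in cells with Myl2. Nr2f2 stood at 373 and 293 CPM without Myl2, against 80.0 and 224 CPM (2 and 24 UMIs) with Myl2. Both libraries gave the higher value for Nr2f1 and Nr2f2 in cells without Myl2, and their ranges do not overlap. For Nr2f6 the values were 27.8 and 39.0 CPM without Myl2 and 120 and 18.7 CPM with Myl2 (3 and 2 UMIs), which overlap. The 8 cells with Myl2 in replicate 1 held so few UMIs that 3 counts equal 120 CPM, and the 23 cells of replicate 2 reach that floor at 28.0 CPM.

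None of the 3 genes was called in this split, in which 0.522% of 3829 tested genes were (edgeR, 9 or 0.235% higher and 11 or 0.287% lower without Myl2). Before adjustment, Nr2f1 and Nr2f2 had edgeR p-values under 0.05, and DESeq2 gave Nr2f2 an adjusted p of 0.359. The log2 fold change was 2.61 for Nr2f1 (SE 0.75, edgeR adjusted p = 0.089), 0.88 for Nr2f2 (SE 0.34, edgeR adjusted p = 0.312) and -0.01 for Nr2f6 (SE 0.73, edgeR adjusted p = 1). With both libraries summed, the CPM ratio of Nr2f1 without Myl2 to that with Myl2 was 5.66, from 103 and 2 UMIs (exact 95% interval of counting error 1.53 to 47.4). A single cell of replicate 2 carried 18 of the 24 Nr2f2 UMIs among cells with Myl2. It held 10737 UMIs, of which 2 were Myl2. The remaining replicate 2 cells with Myl2 had 62.2 CPM of Nr2f2. That cell was picked for its Nr2f2 count, so no test is read from leaving it out. By share of cells, a Nr2f2 UMI was found in 54.0% and 42.8% of cells without Myl2 and in 12.5% and 17.4% of cells with Myl2. Nr2f2 passed without the mitochondrial filter (1.35, edgeR adjusted p = 0.0069) and Nr2f1 at resolution 3 (8.34, SE 2.03, edgeR adjusted p = 0.027). With as few Nr2f1 UMIs in cells with Myl2 as the 0 and 2 at resolution 2, the value of 8.34 is no measure of the size of the difference.

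**Figure D4:**
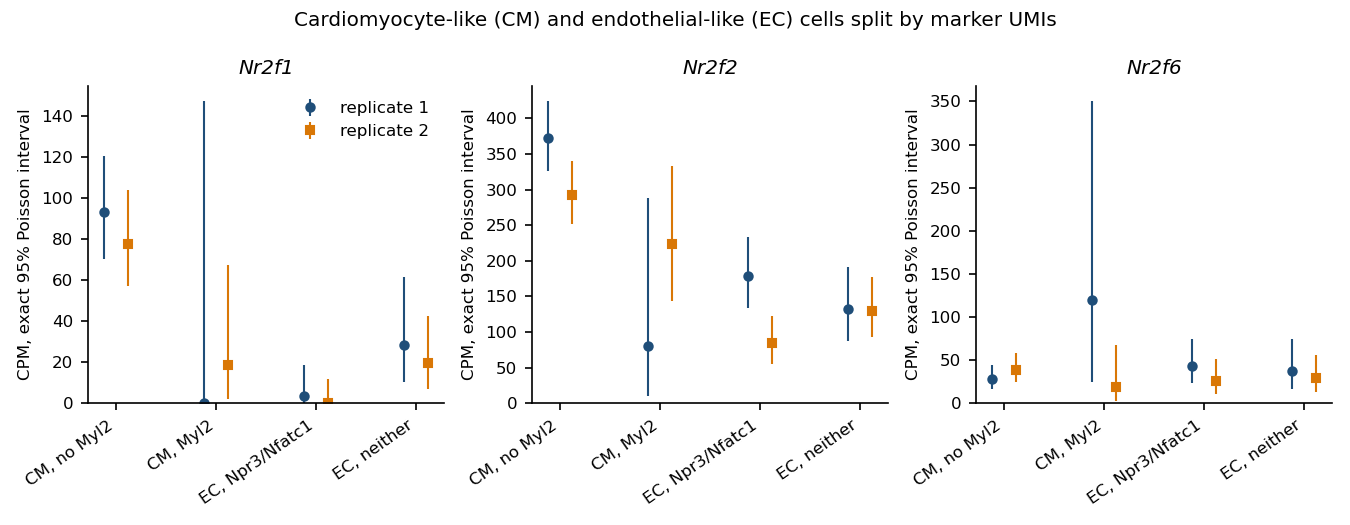
CPM of each COUP-TF gene, per library with exact 95% Poisson intervals of counting error, in cardiomyocyte-like cells (CM) without and with Myl2 and in endothelial-like cells (EC) with and without Npr3 or Nfatc1. Nr2f1 and Nr2f2 are lower with Myl2 in both libraries, and Nr2f1 has 1 UMI and 0 UMIs in endothelial-like cells with Npr3 or Nfatc1.

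Chamber genes were read in the same split. Of 12 tested atrial chamber genes, 2 were higher in cells without Myl2, the natriuretic peptide Nppa at 2.60 (SE 0.44, edgeR adjusted p = 0.00012) and Angpt1 at 1.92 (SE 0.38, edgeR adjusted p = 0.0013), and 1 was lower, the myosin light chain Myl7 at -0.46 (edgeR adjusted p = 0.031). Of 10 tested ventricular genes, 4 were lower without Myl2, namely Myh7 at -1.85, Myl3 at -1.27, Cited1 at -3.53 and Lbh at -1.11. Median log2 fold changes were 0.93 for the atrial and -1.51 for the ventricular list, and 0.27 over all tested genes. Cardiomyocyte markers summed to 19652 and 25033 CPM without Myl2 and 42500 and 32474 CPM with it, and SHF progenitor markers to 1070 and 874 CPM without and 440 and 709 CPM with it. Their part in the Nr2f1 and Nr2f2 values was not tested.

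Endothelial-like cells were divided by the endocardial genes Npr3 and Nfatc1 into 46 and 67 cells with a UMI of either and 118 and 136 cells with none. The cells with them were deeper, at medians of 5384 and 3376 UMIs against 863 and 1629 UMIs. Nr2f1 had 1 and 0 UMIs in cells with Npr3 or Nfatc1 and 6 and 6 UMIs in cells without, although the first group held more UMIs in all. The CPM ratio was 0.0713 (exact 95% interval of counting error 0.00167 to 0.482), and the fitted log2 fold change of -3.64 was not called (SE 1.03, edgeR adjusted p = 0.171). Nr2f2 stood at 178 and 84.0 CPM with Npr3 or Nfatc1 and 132 and 130 CPM without, so the libraries differ in direction. In replicate 1, a single cell held 21 of the 53 Nr2f2 UMIs of the group with Npr3 or Nfatc1. The fitted log2 fold change of Nr2f2 was 0.01 (SE 0.31, edgeR adjusted p = 1), and that of Nr2f6 was 0.12 (SE 0.50, edgeR adjusted p = 1). Of 3721 tested genes 0.269% were called (edgeR, 9 or 0.242% higher and 1 or 0.0269% lower). Among them were the connexins Gja5, of the atrial list, at 4.53 and Gja4, of the arterial list, at 2.06 (edgeR adjusted p = 0.0072 each). Of 11 tested arterial genes, 1 was called by edgeR and 2 had an unadjusted p under 0.05. Of 9 tested venous and lymphatic genes, 0 were called by edgeR and 2 had an unadjusted p under 0.05.

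Within classes, the genes varied between clusters. The SHF progenitor-like clusters were alike in Nr2f2, at 355 and 438, 367 and 336, and 361 and 368 CPM. The foregut endoderm-like class was split, in that the cluster with Nkx2-1 had 401 and 437 CPM of Nr2f2 and 3.54 and 0 CPM of Nr2f1, while the other, led by Marveld2, St14 and Fgf8, had 247 and 231 CPM of Nr2f2 and 49.4 and 30.8 CPM of Nr2f1. The whole class held only 9 and 8 Nr2f1 UMIs, so its Nr2f1 split rests on few counts. Both clusters held Nr2f6, at 87.3 and 77.5 CPM in the Nkx2-1 cluster and 74.1 and 139 CPM in the other. The pharyngeal mesoderm-like class was split for Nr2f1, with 65.6 and 70.6 CPM in the cluster led by Grem1 and 4.07 and 12.8 CPM in the one led by Kazald1 and Tlx1. Of 3 ectomesenchyme-like clusters, the one led by Dlx5 and Dlx6 had 129 and 103 CPM of Nr2f1 and 48.3 and 98.4 CPM of Nr2f2. The class averages above therefore mix clusters of different COUP-TF content in endoderm and pharyngeal mesoderm.

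**Figure D5:**
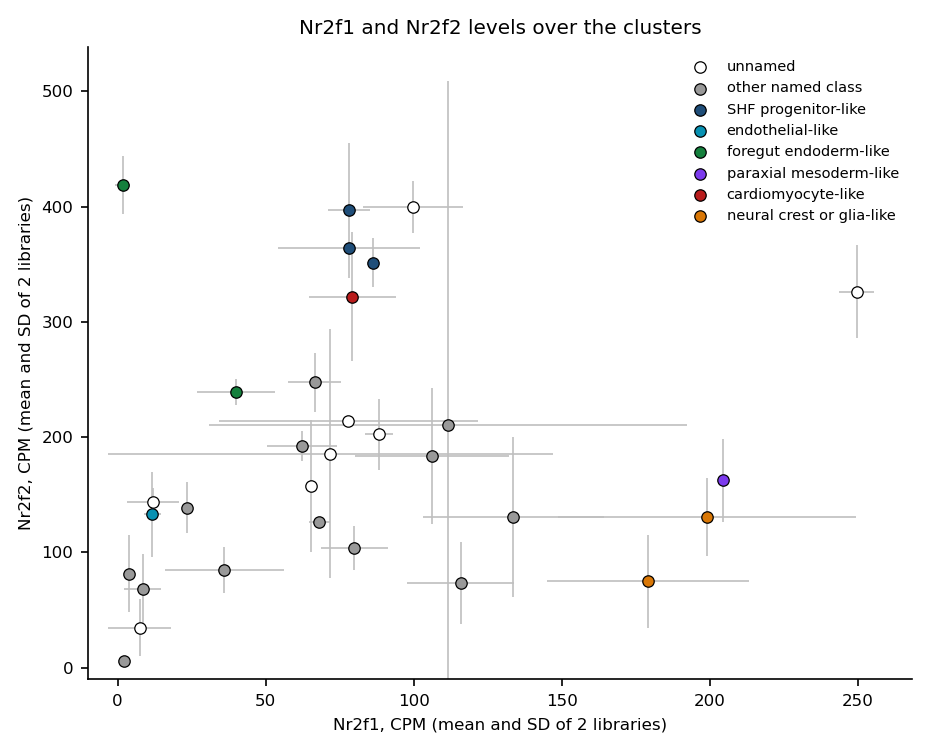
Nr2f1 against Nr2f2 CPM in each of the 31 clusters (mean of 2 libraries, lines show the SD). The foregut endoderm-like cluster with Nkx2-1 lies at the top left, SHF progenitor-like and cardiomyocyte-like clusters in the upper middle, and paraxial mesoderm-like and neural crest or glia-like clusters to the right, with 1 unnamed cluster high in both genes.

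Detection of Nr2f1 and Nr2f2 in the same cells differed between classes, and in most classes cells with a Nr2f1 UMI were deeper. In SHF progenitor-like cells, 66.7% and 60.8% of cells with a Nr2f1 UMI had a Nr2f2 UMI, against 45.3% and 42.8% of cells without (medians 5395 and 2882 UMIs against 1939 and 1800 UMIs). In neural crest or glia-like cells the shares were 46.3% and 53.7% with Nr2f1 against 15.0% and 14.6% without (medians 4030 and 4782 UMIs against 936 and 1084 UMIs). In paraxial mesoderm-like cells they were 45.5% and 58.2% against 12.7% and 30.5%. In pharyngeal mesoderm-like cells, by contrast, a Nr2f2 UMI was found in 2 of 12 and 2 of 25 cells with Nr2f1 against 14.5% and 13.5% of cells without. In foregut endoderm-like cells, with only 8 and 7 cells holding a Nr2f1 UMI, it was found in 4 of 8 and 2 of 7 cells with Nr2f1 against 44.2% and 36.3% of cells without. The part of depth in these differences was not tested.

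Over the 14 tested classes, log2(CPM + 1) of Nr2f1 and Nr2f2 correlated at r = 0.52 in each library, that of Nr2f2 and Nr2f6 at 0.62 and 0.81, and that of Nr2f1 and Nr2f6 at 0.30 and 0.32. These values describe 14 classes that share 2 libraries and differ in depth. Erythroid-like cells stood far below every other tested class in Nr2f2 (5.58 and 6.42 CPM against 58.0 or more). The same held for Nr2f6 (0.930 and 0.918 CPM against 14.8 or more). Values of r without that class were not computed, so they do not show whether these genes vary together over the other 13 classes. The search for like genes included that class too. Among 2124 held-out genes with at least 50 CPM in their highest class, the pattern of Nr2f1 was most like those of Hoxa2 (r = 0.80 and 0.82), Tril, Pcdh18, Metrn and B3gnt5. The closest to Nr2f2 were Nrep (0.88 and 0.90), Tiparp, Ddx50, Maged1 and Dynll1, and the closest to Nr2f6 were Ptprf (0.92 and 0.95), Slc38a1, Nipsnap1, Sipa1l1 and Rufy2.

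Genes of the same pathway were read in the contrast of progenitors with cardiomyocytes. Of 14 tested genes of retinoic acid synthesis and response, 8 were higher and 1 lower in progenitors, with a median log2 fold change of 1.83, against 12.5% higher, 14.6% lower and a median of 0.03 over all tested genes. Among the higher genes were the retinoic acid synthesising enzyme Aldh1a2 (3.89, SE 0.39), the retinol dehydrogenase Rdh10 (3.02, SE 0.43), the receptor for retinol-binding protein Stra6 (4.64, SE 0.93), the retinoic acid carrier Crabp1 (1.25), and Hoxa3 (3.45) and Hoxb5 (3.54), and for these edgeR's adjusted p was at most 0.0011. Tgm2 was lower (-2.59). In the same contrast the COUP-TF genes had a median of -0.04.

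Of 12 tested COUP-TF cofactors, 1 was higher in progenitors, where 12.5% of all tested genes were called higher. It was Bcl11a, which encodes a zinc finger protein known to bind COUP-TF proteins (1.76, SE 0.55, edgeR adjusted p = 0.013). Bcl11a was also higher in SHF progenitor-like cells than in the mean of the other classes (3.48, edgeR adjusted p = 3.4e-09). Of 45 other nuclear receptors, 13 passed the filter on low counts, and 2 were lower in progenitors than in cardiomyocytes, against 14.6% of all tested genes. They were the thyroid hormone receptor Thra (-1.48, SE 0.28) and the glucocorticoid receptor Nr3c1 (-2.37, SE 0.64). Foregut endoderm-like cells, where Nr2f2 and Nr2f6 were higher, were read against the mean of the other classes. There 4 of the 13 receptors were called higher, against 11.4% of all tested genes. They were Rarb (1.90), Rara (0.61), Nr5a2 (3.45) and Hnf4a (3.22). Rarg was higher in ectomesenchyme-like (3.00), neural crest or glia-like (2.50) and paraxial mesoderm-like cells (2.01), as Nr2f1 was, and also in surface ectoderm-like cells (2.42), where Nr2f1 was not called, and in endothelial-like cells (2.32), where it was lower.

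Chamber and vessel genes in the progenitor contrast are given for completeness of the lists. All 12 tested atrial genes were lower in progenitors, and of 8 tested ventricular genes 5 were lower and 1, Irx3, higher (2.33). Of 11 tested arterial genes, 1 was higher and 4 lower, and of 9 venous and lymphatic genes, 2 were higher and 3 lower.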

How the data were processed

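The deposited matrices hold whole-number UMI counts per gene and barcode. Per the submitters' processing notes, the genome build was mm10 and Scanpy was used. The sources used here do not name the aligner, counter, strand setting or annotation release. Of 52550 identifiers, 93.3% matched GENCODE M21 with their version and 99.7% without. All further steps started from these deposited counts. Cells needed 400 or more genes and no more than 10% mitochondrial UMIs. Scrublet's own threshold marked 0 and 1 cells, so cells scoring above the cut for the highest 5% were removed (174 of 4038 and 189 of 4934 cells). Cells were normalised to 10000 UMIs, and 2000 variable genes, 30 components, 20 neighbours and Leiden resolution 2 gave 31 clusters (Scanpy 1.11.5, leidenalg 0.10.2). A random 1 in 3 of all genes and all listed genes took no part in clustering, and 34717 genes were available for it. A cluster was named when at least 3 markers of a type were raised by at least 2-fold in at least 5% of its cells, no other type had more markers among its 10 leading genes, and at least 1 of its own markers led it or at least 0.5 of them were raised. Counts were summed per library and class and tested with edgeR 4.0.16 in R 4.3.3 (TMM, low-count filter, library as a block), and DESeq2 1.42.0 was an alternative. A class needed 20 cells in each library, and each side of a split class 5. Tested on simulated data, the fit recovered most of the larger changes and few of the smaller ones. The simulation gave all genes the same spread and had no library effect, unlike these libraries, so it does not measure recovery in them. CPM is the class sum divided by all UMIs of the class and library.

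The members and lists were chosen with earlier results of these data known. Named list genes are those past an adjusted p of 0.05, and genes alike are the 5 with the highest lower correlation. The block pairs classes of one library, since the labels tie each replicate to its own day. Same-library deviations correlated in all 91 class pairs (r from 0.33 to 0.77, 727 genes). The libraries differed beyond sampling noise (chi-square over degrees of freedom 25.9, 16717 genes). The labels call them biological replicates. With the library as a block, p-values measure how far class differences vary between the 2 pools, not the spread between the pools themselves. Intervals are exact at 95% and floors are 3 counts, and both cover counting error only. The alternatives were cell, mitochondrial, doublet and low-count filters, resolution, gene split, normalization, test, block, depth, Myl2 cut and left-out replicates. Some list and leading genes are not reported here. No sequences are shown.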

Additional observations from a re-analysis of the deposited data

How the results depend on the processing

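Of the 22 class calls for COUP-TF genes, 12 held in every tested setting, and all 22 kept their direction in every tested setting that held the class. The 10 others were each lost in at least 1 setting, most often with cells thinned to 1000 UMIs, where Nr2f1 was lower in 1 class and Nr2f2 in 1, and Nr2f6 higher in 2. Nr2f2 was also lower in 1 class with DESeq2, without the replicate block and at resolution 1, and Nr2f6 in 0 classes at resolution 3. The log2 fold change of Nr2f1 in pharyngeal mesoderm-like cells turned to 1.29 at 800 genes, where it was called higher (SE 0.25, edgeR adjusted p = 0.00023). It also turned, without a call, to 0.69 with doublet-scored cells kept, 0.15 without the mitochondrial filter and 0.25 thinned. That of Nr2f2 in ectomesenchyme-like cells turned to 0.035 with doublet-scored cells kept, 0.13 at resolution 1 and 0.0086 thinned. The pharyngeal mesoderm-like class did not form at resolutions 1 and 3, nor the surface ectoderm-like class with doublet-scored cells kept. The cause of these shifts was not tested.

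Between SHF progenitors and cardiomyocytes, Nr2f1 turned to 0.35 with another gene split, 0.0071 without the low-count filter, 0.49 without the mitochondrial filter and 0.47 at resolution 3, and was -1.08 at 800 genes. Nr2f2 turned to -0.087 with another gene split, -0.24 with doublet-scored cells kept, -0.69 without the mitochondrial filter and -0.020 at resolution 1, and was called at 1.18 at 800 genes and 0.44 at resolution 3. Nr2f6 turned to 0.13, 0.17, 0.43, 0.084, 0.15 and 1.13 with another gene split, doublet-scored cells kept, no mitochondrial filter, resolution 1, resolution 3 and thinning. Called genes numbered 302 higher with DESeq2, 274 higher at resolution 1, 118 higher and 232 lower at 800 genes, and 118 higher and 215 lower thinned. With 1 replicate left out, which leaves no test, Nr2f1 ran from -0.30 to 0.18, Nr2f2 from -0.12 to 0.24 and Nr2f6 from -0.39 to 0.18.

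For cells without over with Myl2, Nr2f1 was 8.34 at resolution 3 (SE 2.03), a value of uncertain size because few Nr2f1 UMIs were found in cells with Myl2. Nr2f2 was 1.35 without the mitochondrial filter and 2.44 without the 1 deep cell. That cell was chosen for its Nr2f2 count, so that this rise was fixed by the choice. Nr2f6 turned to 0.091 with another gene split, 0.11 in cells with at least 2000 UMIs, 0.14 without the low-count filter, 0.14 at resolution 1, 4.38 thinned and 0.18 without the deep cell. Called genes numbered 3 higher with DESeq2, 4 higher and 22 lower with DESeq2 size factors, 15 and 22 with doublet-scored cells kept, 40 higher without the low-count filter, 16 and 28 without the mitochondrial filter, 25 and 1 thinned, and 15 higher without the deep cell. Left-out replicates gave 2.05 to 6.80 for Nr2f1 (the second against 0 UMIs, which depends on the prior count and is no bound), 0.42 to 2.67 for Nr2f2 and -1.61 to 1.06 for Nr2f6. A cut at 2 or more Myl2 UMIs was not run, since it left under 5 cells in a library.

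For endothelial-like cells with over without Npr3 or Nfatc1, Nr2f2 turned to -0.0018 with DESeq2 size factors, -0.34 at 800 genes, -0.17 with doublet-scored cells kept, -0.0038 without the low-count filter, -0.020 at resolution 1 and -2.65 thinned, and Nr2f6 to -0.24 at 800 genes and -0.81 thinned. Called genes numbered 1 higher with DESeq2, 4 and 4 with another gene split, 5 higher without the mitochondrial filter, 1 and 0 thinned, 0 lower at 800 genes, 2 lower with doublet-scored cells kept and 8 lower without the low-count filter. Left-out replicates gave -4.74 to -2.75 for Nr2f1 (the first likewise from 0 UMIs), -0.66 to 0.47 for Nr2f2 and -0.20 to 0.25 for Nr2f6.

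Without the replicate block, which pairs classes of one library, 147 genes were higher and 307 lower in progenitors over cardiomyocytes, 0 and 0 in the Myl2 split by edgeR (233 and 65 before adjustment), and 1 and 0 in the endothelial split (86 and 52 before adjustment). Then 3 class calls were lost, Nr2f2 in hepatoblast-like and pharyngeal mesoderm-like cells and Nr2f6 in surface ectoderm-like cells. Depth limits the split classes, since 3 UMIs equal 120 CPM in the 8 cells with Myl2 of replicate 1.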

Other observations

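Unnamed clusters also carried COUP-TF transcripts. A cluster of 171 and 99 cells led by Kcnq1ot1 and Fendrr had 254 and 246 CPM of Nr2f1 together with 298 and 355 CPM of Nr2f2. One led by Postn and Lum, with 65 and 56 cells and the mesothelial markers Wt1 and Upk3b raised, had 416 and 384 CPM of Nr2f2 and 87.8 and 112 CPM of Nr2f1. An epithelial cluster led by Vgll2, Pax8 and Pax1 had 85.0 and 110 CPM of Nr2f6 and 152 and 135 CPM of Nr2f2, with 5.86 and 18.3 CPM of Nr2f1. These clusters were chosen after their values were seen.

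The antisense transcript A830082K12Rik stood at 49.5 and 29.6 CPM in paraxial mesoderm-like, 45.4 and 28.6 CPM in neural crest or glia-like and 42.4 and 51.8 CPM in neural tube-like cells, and at 3.10 and 0 CPM in foregut endoderm-like cells. B130024G19Rik stood at 21.5 and 17.4 CPM in SHF progenitor-like and 14.1 and 11.5 CPM in cardiomyocyte-like cells, against 2.06 and 2.42 CPM in foregut endoderm-like cells, where Nr2f2 itself was 382 and 372 CPM.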
